A study of Mus musculus with 4 samples.

Results

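Collagen genes were read on 4 Illumina bead arrays of mouse dorsal skin. The members were all genes whose symbol in the platform annotation has the form of a collagen alpha chain (Col, a number, a, a number). This gave 41 genes measured by 91 probes, of 45281 probes on the array. Every array held total RNA pooled from 6 C57BL/6J mice aged 8 to 12 weeks. The GFP group had been injected with mini-circle DNA carrying GFP, and the IL-17A group with mini-circle DNA carrying IL-17A. The other 2 groups, GFP with IMQ and IL-17A together with IMQ, had received the same DNA and an agent the labels name IMQ. IMQ usually stands for imiquimod, which activates Toll-like receptors and inflames mouse skin. This small circular vector was thus common to all groups, and no group was free of an injection. The labels gave no dose, schedule, promoter or site of injection. Each group had 1 array, so no difference below has a replicate, an error or a test, and higher or lower refers to these 4 arrays alone.

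Collagens are extracellular proteins built from 3 alpha chains wound into a triple helix, and each gene encodes 1 chain. Fibrillar collagens, mainly types I, III and V in the dermis, form the fibres that give skin its tensile strength and are made largely by fibroblasts. Basement membrane collagens form the sheet under the epidermis and around vessels and anchor it to the dermis. Fibril-associated collagens sit on the surface of fibres, and the remaining types include beaded filaments and chains that span the membrane of keratinocytes.

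A probe was counted as measured where its signal, the deposited background-subtracted intensity, was above its array's detection limit, which lay between 11.6 and 12.7. Of the 41 genes, 28 had a probe above the limit on at least 1 array and 21 had one above it on all 4. The 28 comprised 9 of 11 fibrillar genes, 9 of 9 basement membrane genes, 3 of 7 fibril-associated genes and 7 of 14 others. The other 13 genes, with 29 probes, had signals from -12.5 to 11.4 and were not measurable here. They were Col2a1, Col24a1, Col9a2, Col9a3, Col19a1, Col22a1, Col6a4, Col6a5, Col6a6, Col10a1, Col13a1, Col25a1 and Col26a1. Among them are chains known mainly from cartilage, such as Col2a1 and Col10a1, and the cartilage markers Acan, Matn1, Matn3 and Hapln1 were also below the limit on all 4 arrays. Of the other 2 cartilage markers, Comp was above it on 3 arrays, and Sox9, which hair follicles also express, on all 4, with signals from 1307 to 2269. Each gene is represented by its brightest probe, and differences are log2 differences of normalized levels. A gene was called when it was at least 2-fold apart and passed the limit on the array with the higher level.

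The arrays carried the markers of skin: 9 of 10 keratinocyte markers and 12 of 12 fibroblast markers named on the array were above the limit on at least 1 array, while the epithelial marker Epcam was below it on all 4 and Dsg1a on 2 of them. The GFP array stood apart in hair follicle markers. Of 15 such genes named on the array, Krt25, Msx2 and Lef1 were below the limit on all 4 arrays and 12 were above it somewhere. Of these 12, 10 were below it on the GFP array alone, so they passed the filter only through the other arrays. The summed signal of the 12 was 307 in GFP and 16677 in IL-17A skin, and with IMQ 6918 in GFP and 27081 in IL-17A skin. Of the 5 comparisons, 3 rest on the GFP array, so those that do not are given beside them. In RNA from whole skin, fewer cells of a type and less RNA per cell cannot be told apart.

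Type I, III, V and VI collagen genes had their highest level in GFP skin and lower levels on the other 3 arrays. Col1a1, which encodes the main chain of type I collagen, had a signal of 2735 in GFP and 1088 in IL-17A skin, and with IMQ 1823 in GFP and 1380 in IL-17A skin. Its partner chain Col1a2 gave 1302, 482.9, 658.1 and 567.5 in the same order. For both chains GFP skin was highest and IL-17A skin without IMQ lowest, with the IMQ arrays between them. Col5a1, a chain of the type V collagen that starts fibril assembly and limits fibril diameter, had signals of 1872, 696.7, 879.7 and 804.2. Col3a1, the chain of type III collagen in fine reticular fibres, had signals of 580.0, 330.0, 306.0 and 324.0, so that the 3 arrays other than GFP lay close together. Signals are not scaled between arrays, and the median signal of all probes was highest on the GFP array, at 8.80 against 7.85 to 8.31. By normalized level, 13 of the 21 genes above the limit on all 4 arrays were highest on the GFP array, against 29.0% of 10366 genes. By signal they were 15 of 21, against 37.2%, with Col4a2 and Col7a1 added. By normalized level the 13 included 6 of 7 fibrillar genes, 2 of 6 basement membrane genes, 2 of 2 fibril-associated genes and 3 of 6 others.

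**Figure D1:**
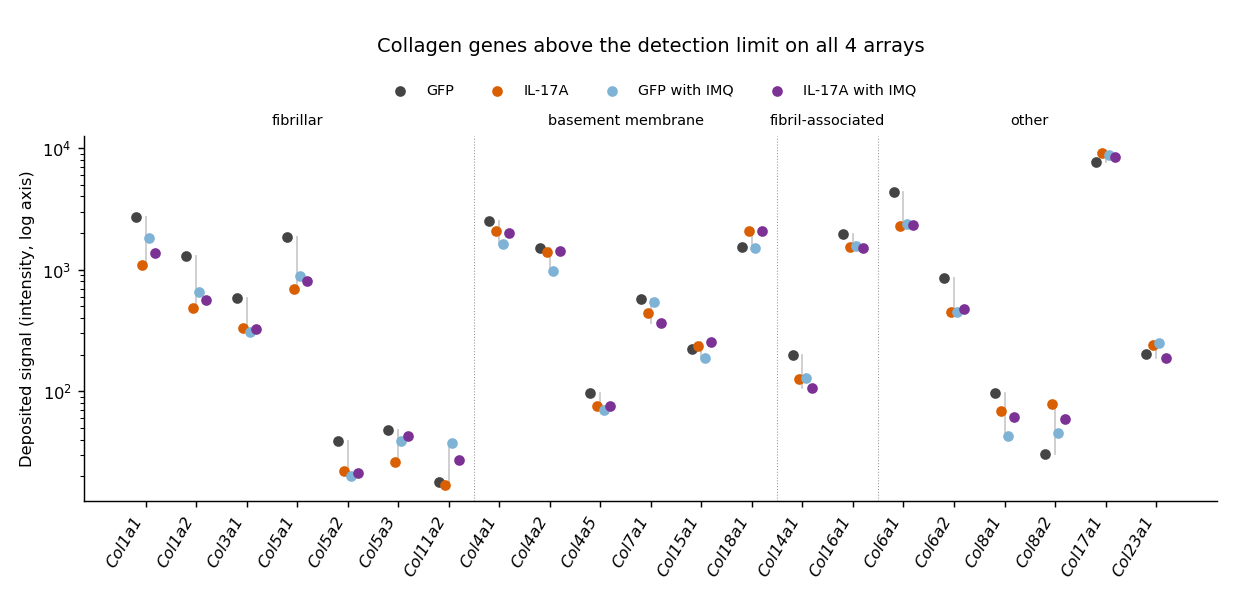
Deposited signal (intensity, log axis) of the 21 collagen genes above the detection limit on all 4 arrays, 1 point per array, with the line joining the lowest and highest. GFP skin is the highest point for 15 of the 21 (13 by normalized level), among them Col1a1, Col1a2, Col3a1 and Col5a1, while Col17a1 and Col8a2 are lowest there.

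The stretch of 150 bases before the annotated transcription start is shown for Col1a2, Col3a1 and Col5a1, and for Col17a1. The first 3 were lower on the arrays other than GFP, and Col17a1 was not. Col1a1, Col6a1 and Col6a2 were also lower there and are not shown, and no promoter sequence was available for Col1a1. Sequences are from RefSeq on build GRCm38.p6, 5′ to 3′ on the gene's strand, with motif matches in capitals. The motifs searched, on both strands, were the CCAAT box, the Sp1-type GC box GGGCGG and the TATA box TATAAA, and no matches overlapped.
Col1a2, chr6:4505468-4505617, plus strand: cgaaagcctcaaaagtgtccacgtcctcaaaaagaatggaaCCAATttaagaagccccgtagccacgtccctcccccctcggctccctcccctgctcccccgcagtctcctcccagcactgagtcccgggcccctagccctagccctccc
Col3a1, chr1:45311388-45311537, plus strand: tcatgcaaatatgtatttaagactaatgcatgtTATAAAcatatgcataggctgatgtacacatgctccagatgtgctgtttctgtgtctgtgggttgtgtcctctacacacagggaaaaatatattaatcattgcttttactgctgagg
Col5a1, chr2:27886275-27886424, plus strand: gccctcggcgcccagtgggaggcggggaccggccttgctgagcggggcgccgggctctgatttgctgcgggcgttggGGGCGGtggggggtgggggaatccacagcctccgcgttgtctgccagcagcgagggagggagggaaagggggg
Col17a1, chr19:47692043-47692192, minus strand: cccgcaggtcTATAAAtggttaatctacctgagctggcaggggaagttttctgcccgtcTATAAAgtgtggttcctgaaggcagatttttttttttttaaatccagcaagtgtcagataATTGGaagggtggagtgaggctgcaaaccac
The 3 genes shown that were lower did not share a match: Col1a2 held CCAAT, Col3a1 TATAAA and Col5a1 GGGCGG. Col6a2, not shown, held GGGCGG as Col5a1 did. Col17a1 held TATAAA at 2 places and CCAAT on the opposite strand. Over all 32851 promoter windows of this length, CCAAT was found in 24.5%, GGGCGG in 28.6% and TATAAA in 7.57%. Among 36 windows of 33 collagen genes the counts were 8, 19 and 4. A match is a description of the letters only.

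In IL-17A skin without IMQ, the comparison that asks how IL-17A DNA bears on otherwise untreated skin, 3 of 28 collagen genes were at least 2-fold lower than in GFP skin and 0 were at least 2-fold higher. Over all 12729 genes, 0.990% were at least 2-fold lower and 0.841% at least 2-fold higher. The 3 were Col5a1 at 2.59-fold, Col1a2 at 2.52-fold and Col1a1 at 2.45-fold lower, all fibrillar. The fibrillar genes had a median log2 difference of -0.28 and a range from -1.37 to 0.21. Beside this, the basement membrane genes had a median of -0.10, the 3 fibril-associated genes -0.33 and the others 0.02. Over all 28 collagen genes the median was -0.21, against 0.01 over all genes, and 17 of 28 were below 0, against 47.3% of all genes.

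Below the 2-fold threshold, 3 further genes were at least 1.5-fold lower, which makes 6 of 28 at that threshold against 3.19% of all genes. At the same threshold 1 gene, Col8a2, was higher, against 2.13%. They were Col3a1 at 1.67-fold and the pair Col6a1 and Col6a2 at 1.85-fold and 1.86-fold. Type VI collagen forms beaded filaments around cells, and its alpha-1 and alpha-2 chains are assembled together. Col6a1 had signals of 4369 in GFP and 2276 in IL-17A skin, and with IMQ 2367 in GFP and 2345 in IL-17A skin. Col6a2 had 861.4, 445.6, 453.2 and 471.5. Both genes showed the same shape, with GFP skin high and the other 3 arrays within a narrow band. The members nearest the 2-fold threshold were thus Col1a1 inside it, at -1.29 on the log2 scale, and Col6a2 outside it, at -0.90.

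Not all fibrillar genes were 2-fold apart. The other type V chains, both dim, were at -0.23 for Col5a2 and -0.28 for Col5a3. Col5a2 had signals of 39.2 in GFP and 22.3 in IL-17A skin, and with IMQ 20.1 and 21.2, highest in GFP skin. Col5a3 had signals of 48.1 in GFP and 26.3 in IL-17A skin, and with IMQ 39.1 and 43. Log2 differences between signals this close to the limit are shrunk by the offset of 50 added to every level. With the authors' values Col5a2 was at -0.43 and Col5a3 at -0.51 for IL-17A without IMQ. Col11a2, a chain known from cartilage fibrils, had signals of 18.0, 17.1, 37.6 and 27.3 and was higher on both IMQ arrays. Col11a1 and Col27a1 were above the limit on 2 of 4 arrays each, with no signal over 15.8.

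**Figure D2:**
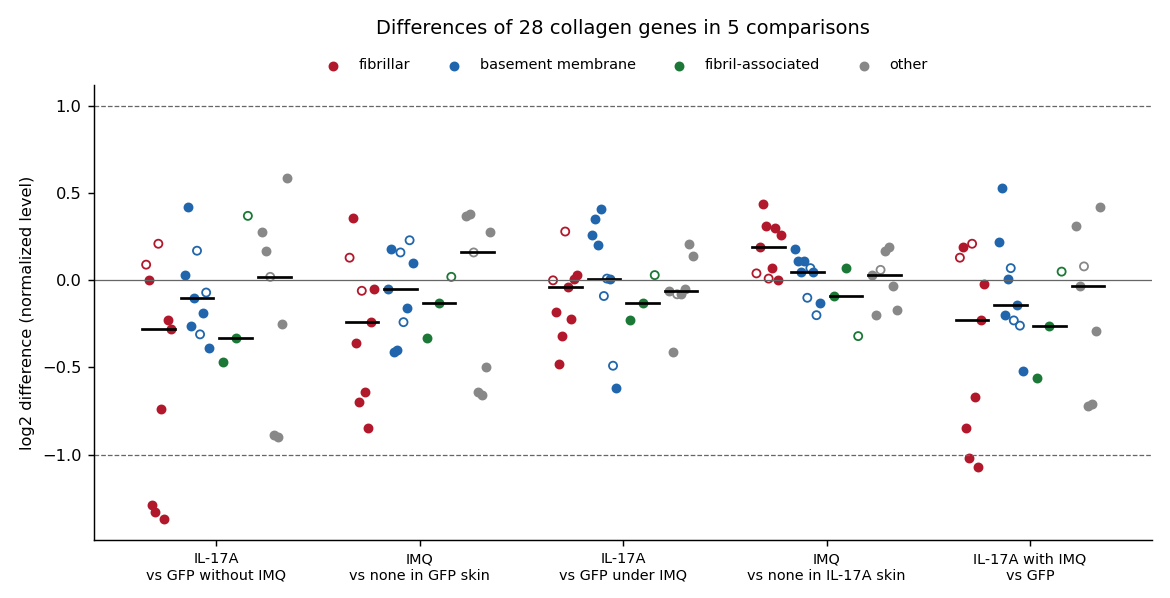
Log2 difference of the 28 collagen genes in 5 comparisons, by collagen group. Filled points are genes above the limit on all 4 arrays and open points those above it on fewer. Black bars are group medians and dashed lines mark 2-fold. The points past the lower dashed line are Col1a1, Col1a2 and Col5a1 at the left and Col1a2 and Col5a1 at the right.

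Basement membrane collagen genes lay closer to 0 and went in both directions. Col4a1 and Col4a2, neighbours on chromosome 8 that encode the chains found in most basement membranes, were at -0.26 and -0.10. Col4a1 had signals of 2510 in GFP and 2097 in IL-17A skin, and with IMQ 1622 in GFP and 2002 in IL-17A skin, and Col4a2 had 1515, 1410, 979.9 and 1412. Unlike the type I chains, both type IV chains were lowest in GFP skin with IMQ. Col18a1, whose product lies in vessel and epithelial basement membranes and is the source of endostatin, had signals of 1546, 2097, 1516 and 2077. It was higher on both IL-17A arrays, by 1.34-fold without IMQ and 1.28-fold under IMQ. Its second measurable probe was at 0.28 without IMQ and at -0.00 under it.

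Col7a1, which encodes the anchoring fibrils that tie the epidermal basement membrane to the dermis, was lower on both IL-17A arrays. Its signals were 574.0 in GFP and 443.0 in IL-17A skin, and with IMQ 547.6 in GFP and 363.4 in IL-17A skin. The difference was 1.31-fold without IMQ and 1.54-fold under IMQ. Col15a1, a relative of Col18a1, ran from 186.9 to 252.8, and Col4a5, a chain of the epidermal basement membrane, from 70.3 to 97.4. The remaining basement membrane genes were dim. Col4a3, Col4a4 and Col4a6 were above the limit on 2, 1 and 3 arrays, with no signal over 36.1.

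Of the fibril-associated genes, Col14a1 and Col16a1 were lower in IL-17A skin. Col14a1, whose product binds type I fibres and regulates their diameter, had signals of 199.8 in GFP and 125.9 in IL-17A skin, and with IMQ 128.0 in GFP and 107.1 in IL-17A skin. Col16a1, a minor component of dermal fibres, had 1963, 1549, 1576 and 1509. Both were highest in GFP skin, by signal and by normalized level, and at -0.47 and -0.33 without IMQ neither was 2-fold apart. A second Col14a1 probe was at -0.31 without IMQ. Under IMQ it was at 0.22, against -0.23 for the probe used. Col9a1 passed the limit on the IL-17A array alone, at a signal of 30.8.

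Among the others, Col17a1 was bright on all 4 arrays. It encodes the transmembrane collagen of hemidesmosomes, by which basal keratinocytes hold to the basement membrane. Its signals were 7674 in GFP and 9159 in IL-17A skin, and with IMQ 8712 in GFP and 8492 in IL-17A skin, lowest in GFP skin and 1.21-fold higher in IL-17A skin without IMQ. Col8a2, a short-chain collagen of vessel walls and the cornea, had signals of 30.7, 79.4, 45.2 and 58.9. Its difference was 0.59 on the scale used here, the largest on the higher side. It was 1.01 with the authors' normalized values, which would be called. With those values 237 of all genes would be called higher, against 107 on the scale used here. Col8a1, its partner, had signals of 96.2, 68.5, 42.8 and 62.0 and differed in the opposite direction, at -0.25. Col23a1, another transmembrane collagen, ran from 187 to 250, and Col28a1 passed the limit on 1 array at 13.5.

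In GFP skin, where treated and untreated skin were compared, 0 of 28 collagen genes were 2-fold apart with IMQ, against 0.283% of all genes lower and 0.416% higher. At 1.5-fold, 5 of 28 were lower and 0 higher, against 2.06% and 1.55% of all genes. The 5 were Col5a1 at 1.80-fold, Col1a2 at 1.63-fold, Col6a2 at 1.58-fold, and Col3a1 and Col6a1 at 1.55-fold lower. Col1a1 was not among them, at 1.29-fold, although its partner chain was. The median was -0.24 for fibrillar genes, -0.05 for basement membrane genes and -0.09 over all 28, of which 17 were below 0, against 49.4% of all genes. Col23a1 and Col17a1, the transmembrane members that were measurable, were 1.30-fold and 1.29-fold higher. This comparison and that of IL-17A skin share the GFP array, so values common to both are not separate evidence.

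Under IMQ, where IL-17A and GFP skin were compared on a second set of arrays, 0 of 28 collagen genes were 2-fold apart, against 0.283% of all genes lower and 1.06% higher. Col1a1 was 1.40-fold, Col1a2 1.25-fold and Col5a1 1.17-fold lower, in the same direction as without IMQ and smaller. Col3a1, Col6a1 and Col6a2 were at -0.04, -0.08 and -0.05, close to 0. For type VI this depended on the probe: the other bright Col6a1 probe was at -0.32 and the dim Col6a2 probe at 0.40. At 1.5-fold, Col7a1 was the 1 gene lower and 0 were higher, against 1.87% and 2.52% of all genes. Here the type IV chains Col4a2 and Col4a1 were higher with IL-17A, by 1.33-fold and 1.15-fold. The median of fibrillar genes was -0.04 and of all 28 collagen genes -0.04, against 0.00 over all genes. Here 16 of 28 were below 0, against 49.2% of all genes.

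Set against each other, the IL-17A differences without and under IMQ were furthest apart for Col5a1 and Col1a2. The difference under IMQ minus that without it was 1.15 for Col5a1 and 1.02 for Col1a2 on the log2 scale. Col6a2 followed at 0.84, Col1a1 and Col6a1 at 0.81 and Col3a1 at 0.71. Of 28 genes, 2 were at least 1 on this scale and 0 were at or below -1, and of all 12729 genes 87 and 56. On the other side stood Col23a1 at -0.58 and Col8a2 at -0.45. These quantities use all 4 arrays once, and whether they exceed the variation between arrays was not tested.

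**Figure D3:**
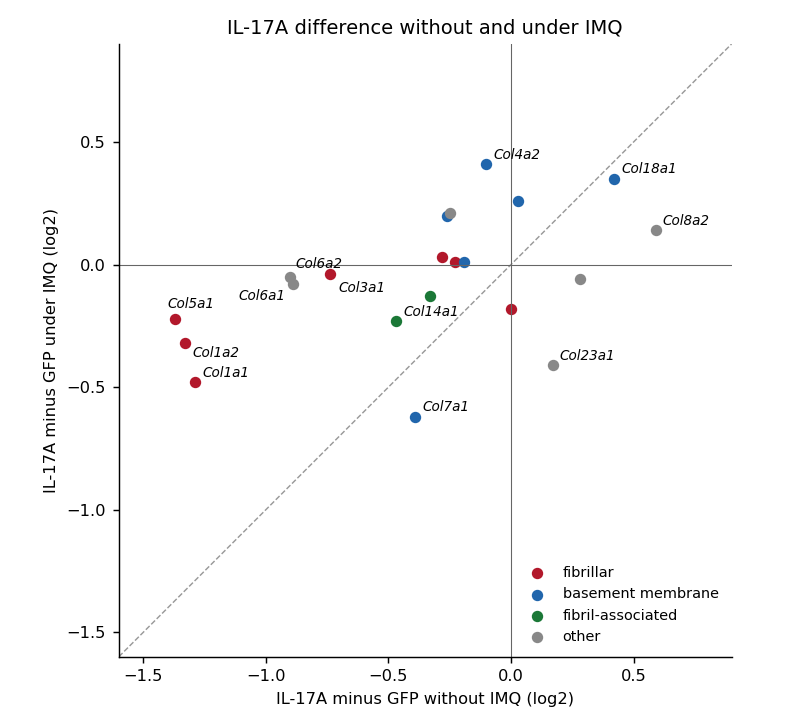
IL-17A minus GFP difference (log2) without IMQ on the x axis and under IMQ on the y axis for the 21 collagen genes above the limit on all 4 arrays; the dashed line marks equal differences. The axes share no array. Col1a1, Col1a2 and Col5a1 lie far to the left at -1.29 to -1.37 but between -0.48 and -0.22 under IMQ, while Col7a1 and Col18a1 lie near the dashed line.

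With and without IMQ, IL-17A skin was compared next: 0 of 28 collagen genes were 2-fold or 1.5-fold apart, against 0.165% of all genes at least 2-fold higher and 0.0786% lower. At 1.5-fold the shares of all genes were 0.966% and 0.212%. The differences ran from -0.32 to 0.44. Col1a1 was the highest at 0.44, followed by Col1a2 at 0.31 and Col5a1 at 0.30, and 8 of 9 fibrillar genes were above 0. Of all 28, 9 were below 0, against 50.9% of all genes. Neither this comparison nor that under IMQ contains the GFP array without IMQ. Of the 21 genes above the limit on all 4 arrays, 15 had IMQ differences of opposite sign in GFP and in IL-17A skin, where 49.5% of 10366 genes did.

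Against GFP skin, IL-17A skin with IMQ had 2 of 28 collagen genes at least 2-fold lower, Col5a1 at 2.10-fold and Col1a2 at 2.03-fold, and 0 higher. Over all genes 1.19% were lower and 1.41% higher. At 1.5-fold, 6 of 28 were lower and 0 higher, against 3.98% and 3.47% of all genes. The 6 were these 2 and Col1a1 at 1.80-fold, Col6a1 at 1.65-fold, Col6a2 at 1.63-fold and Col3a1 at 1.59-fold. The same 6 passed 1.5-fold for IL-17A without IMQ, a comparison that shares the GFP array. Col18a1 was the furthest on the higher side, at 1.44-fold. The median was -0.23 for fibrillar genes and -0.17 over all 28, of which 17 were below 0, against 48.9% of all genes.

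Of the 28 genes, 8 had 2 or more probes above the limit on all 4 arrays. For IL-17A without IMQ the probes of all 8 had the same sign, and the median spread between probes of a gene was 0.14. Both bright Col6a1 probes were close together, at -0.89 and -0.93. Those of Col6a2 were not, at -0.90 for the bright probe and -0.13 for the dim one, whose signals were 65.8 in GFP and 52.3 in IL-17A skin, and with IMQ 33.9 in GFP and 67.3 in IL-17A skin. The 3 Col17a1 probes ran from 0.26 to 0.39. Under IMQ, where differences were small, 3 of 8 genes had probes of the same sign. Col1a1, Col1a2 and Col5a1 had 1 probe each, so no second probe bears on them. A second Col3a1 probe, above the limit on 3 arrays, had signals of 24.5, 7.56, 17.6 and 24.4. It was at -0.28 for IL-17A without IMQ, where the bright probe was at -0.74. For IL-17A with IMQ against GFP it was at 0.03, where the bright probe was at -0.67.

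**Figure D4:**
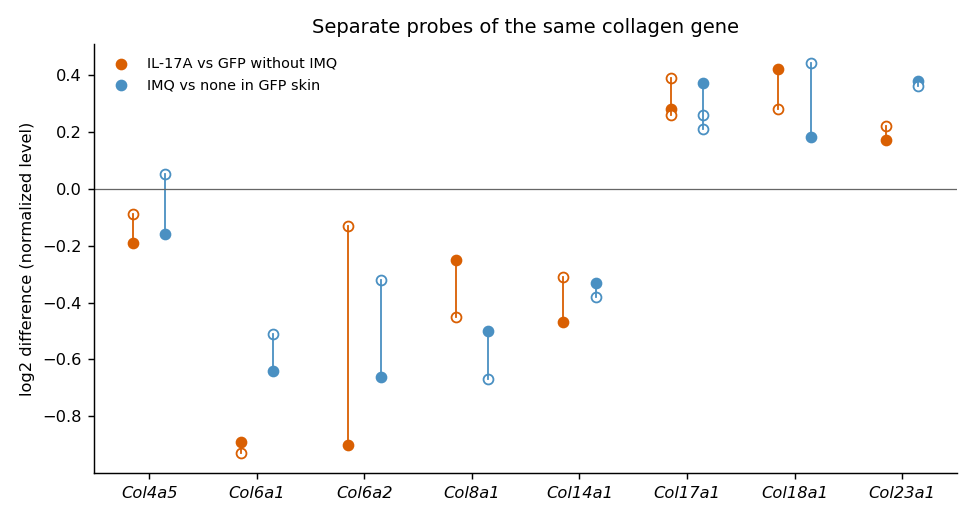
Log2 differences of separate probes of the same gene, for the 8 collagen genes with 2 or more probes above the limit on all 4 arrays. Filled points are the probe used for the gene, open points its other probes, and lines join the lowest and highest. The Col6a2 probes lie 0.76 apart for IL-17A against GFP skin, the widest gap for that comparison.

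Genes that act on collagen were read as lists chosen for their role. Of 19 measured genes of procollagen modification and folding, 17 were below 0 for IL-17A without IMQ, against 47.3% of all genes. The list's median was -0.23 and 0 were 2-fold apart. Under IMQ, 5 of 19 were below 0, against 49.2% of all genes, and the list's median was 0.12. Plod2, a lysyl hydroxylase that prepares collagen for cross-linking, is named after its values were seen: its signals were 102.8 in GFP and 23.4 in IL-17A skin, and with IMQ 21.8 in GFP and 23.9 in IL-17A skin. GFP skin alone was high. On the log2 scale used here the IL-17A difference was -0.89, and it was -1.26 with an offset of 16 and -1.45 with the authors' values.

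Of 8 measured genes of procollagen cleavage and cross-linking, 7 were below 0 in IL-17A skin without IMQ, against 47.3% of all genes. The list's median was -0.53 and 0 were called, although Pcolce2 lay at the threshold. Pcolce2, which enhances removal of the procollagen C-terminal propeptide, had signals of 1050 in GFP and 508.9 in IL-17A skin, and with IMQ 628.9 in GFP and 398.3 in IL-17A skin. Against GFP skin the difference was 1.99-fold without IMQ and 2.29-fold with IMQ, lower in both. Without IMQ it passed 2-fold with an offset of 16, without background correction and with the authors' values, at -1.04, -1.09 and -1.06 on the log2 scale. The 8 measured collagen receptor genes had a median of -0.05 without IMQ and -0.02 under it, with 0 of 8 called in any of the 5 comparisons.

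Collagen-degrading enzymes went in different directions. Mmp13 and Mmp9, a collagenase and a gelatinase, were higher with IL-17A than with GFP under IMQ, by 2.20-fold and 2.04-fold. These were 2 of 7 measured genes, against 1.06% of all genes. Mmp13 had signals of 107.5 in GFP and 229.6 in IL-17A skin, and with IMQ 99.2 in GFP and 310.7 in IL-17A skin, high on both IL-17A arrays. Mmp9 had 231.1, 241.7, 83.5 and 246.5 in the same order, low in GFP skin with IMQ alone. Without IMQ its IL-17A difference was 0.03. Fap, a protease of activated fibroblasts, had 265.4, 106.1, 163.0 and 66.7 and was 2.40-fold lower in IL-17A skin with IMQ than in GFP skin. The list's median was -0.07 without IMQ and 0.19 under it.

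Markers of the cells in skin differed between arrays to different degrees, and not all in the direction of the collagen genes. The 12 fibroblast markers had a median of -0.35 in IL-17A skin without IMQ, ranging from -0.78 to 0.22. Of the 12, 10 were below 0, against 47.3% of all genes, and 0 were called. The summed signal of the 12 was 36476 in GFP and 26650 in IL-17A skin, and with IMQ 24830 in GFP and 26202 in IL-17A skin. It was again highest in GFP skin, where Dcn alone gave 17799. The unscaled sums of keratinocyte, macrophage, endothelial and pericyte, adipocyte and skeletal muscle markers were also highest in GFP skin. Those of hair follicle and cartilage markers were lowest there. The lowest fibroblast marker difference, at -0.78, was above those of Col1a1, Col1a2 and Col5a1, at -1.29 to -1.37. The difference between these genes and the fibroblast list was not tested. Under IMQ the list's median was 0.12, where Col1a1 was at -0.48. The list then ranged from -0.73, for Fn1, to 0.45, so Col1a1 lay within its range. The 1 marker called in any comparison was Fn1, fibronectin, on which collagen fibres assemble. Its signals were 666.7 in GFP and 419.1 in IL-17A skin, and with IMQ 425.9 and 252.3, and it was 2.20-fold lower in the last than in GFP skin.

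Macrophage markers had a median of -1.35 without IMQ, and 7 of 9 were called as lower with IL-17A, against 0.990% of all genes. Under IMQ the macrophage median was -0.71 and 1 of 9 was called as lower, against 0.283% of all genes. The summed signal of the macrophage markers was 33241 in GFP and 12908 in IL-17A skin, and with IMQ 18454 and 11239. Of hair follicle markers, whose summed signals are given above, 9 of 12 were called as higher with IL-17A both without and under IMQ. The shares of all genes were 0.841% and 1.06%. These 9 were below the limit on the GFP array and passed the filter only through the other arrays. Their count without IMQ therefore cannot be read against the share of all genes. Keratinocyte markers had a median of 0.02 and a summed signal from 145781 to 166016. Endothelial and pericyte, adipocyte and skeletal muscle markers had medians of -0.04, -0.07 and -0.02, with 0 genes called. The part of hair follicle, fibroblast and macrophage content in the collagen differences was not tested.

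**Figure D5:**
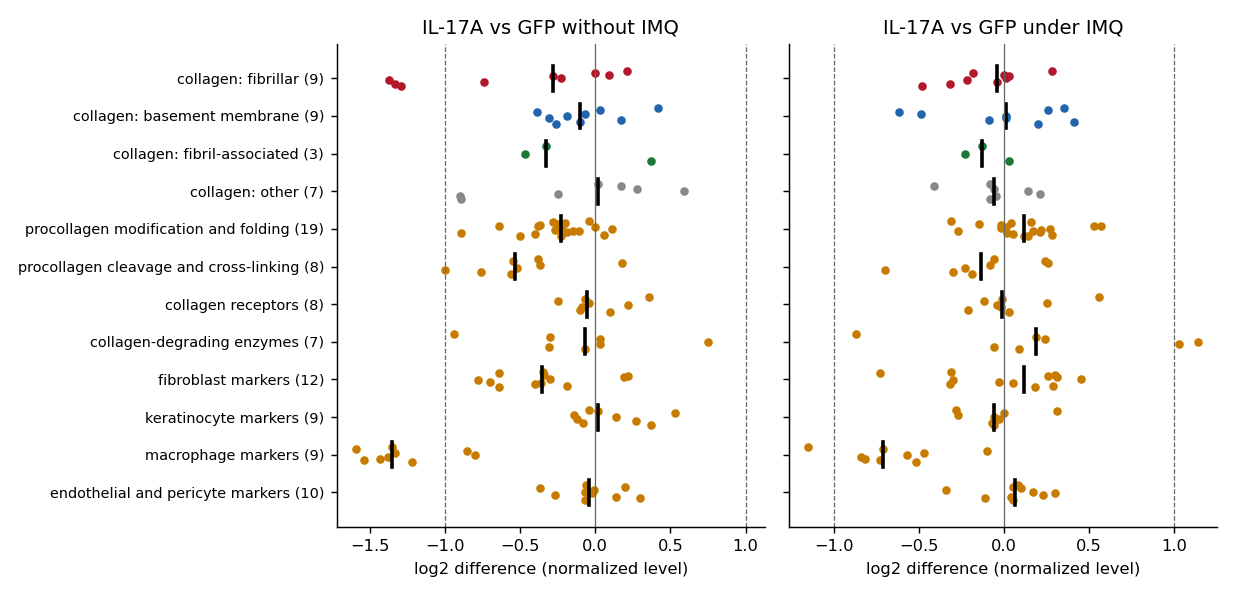
Log2 differences of the collagen groups and of other gene lists for IL-17A minus GFP, without IMQ (left) and under IMQ (right). Points are genes above the limit on at least 1 array, their number is in brackets, black bars are medians and dashed lines mark 2-fold. Without IMQ the medians of fibrillar collagens, cleavage and cross-linking genes and fibroblast markers are -0.28, -0.53 and -0.35, and under IMQ -0.04, -0.14 and 0.12.

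Chains encoded by neighbouring genes could be set side by side in the RefSeq gene order. Col6a1 and Col6a2, on chromosome 10, lay close together in each comparison by the probe used for each gene. They were at -0.89 and -0.90 for IL-17A without IMQ and -0.64 and -0.66 for IMQ in GFP skin. For IL-17A under IMQ they were at -0.08 and -0.05. Col4a1 and Col4a2 were at -0.41 and -0.40 for IMQ in GFP skin and at 0.20 and 0.41 for IL-17A under IMQ. Col3a1 and Col5a2, on chromosome 1, were at -0.74 and -0.23 for IL-17A without IMQ, with the dim Col5a2 subject to the offset. The X-linked Col4a5 and Col4a6 went apart, at -0.16 and 0.23 for IMQ in GFP skin, with Col4a6 close to the limit. A second Col4a5 probe was at 0.05 there, the same sign as Col4a6.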

How the data were processed

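One deposited table gave a linear intensity for each probe, unnormalized and already background-subtracted: 32.3% to 33.7% of values were below 0. A second deposited table held normalized log2 values by the authors, with medians of 4.82 to 4.83. The program and normalization method are not given in the sources used here. Intensities were corrected with limma 3.58.1 under R 4.3.3 (normexp, offset 50), quantile normalized and put on a log2 scale. Without detection p-values, values below 0 were mirrored at 0 and the limit was set where a share of 0.01 of this noise passes. This left 45.2% to 45.8% of probes above the limit, and the number of arrays limits the precision. Of the probes, 34885 carried a single symbol in the annotation, 18 had several and 10378 had none. All 41 collagen genes were found in RefSeq by Entrez identifier with the same symbol. Each gene was represented by its probe with the highest mean level among its measured probes (above the limit on any array), and 12729 genes remained. Counts and medians were made in Python 3.11.15 with pandas 2.3.3, and the steps were tested on simulated data.

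The members, collagen groups and lists were chosen with earlier results of these data known. All-array values were to be given for members 2-fold apart in any comparison and the 3 brightest of each group, and the others by range or value. In other lists, up to 4 members 2-fold apart were to be named. Alternatives varied the background correction, scaling, probe choice, filter and threshold, and used the authors' values. With 1 array per group there was no test.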

Additional observations from a re-analysis of the deposited data

How the results depend on the processing

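No paired analysis was possible because each group has 1 array. Col1a1, Col1a2 and Col5a1 were at least 2-fold lower in IL-17A than in GFP skin without IMQ under an offset of 16, no background correction, median scaling, the authors' values, the mean of probes and each filter tried. Col1a2 and Col5a1 were likewise for IL-17A with IMQ against GFP. Of all genes, 367 were so called in the first comparison without background correction and 256 by the authors' values, against 126. In the second, 437 and 279 were so called, against 152. A 3-fold threshold left 0 members in both comparisons. A 1.5-fold threshold gave 6 lower in both, 5 lower for IMQ in GFP skin, 1 lower for IL-17A under IMQ, and 1 higher (Col8a2) for IL-17A without IMQ. Col8a2 was also called higher there, as the 1 member, by the authors' values and without background correction. Under these settings 237 and 300 of all genes were so called, against 107. Without background correction, 1 member each was called higher for IMQ in GFP skin (Col11a2), lower for IL-17A under IMQ (Col4a6) and higher for IL-17A with IMQ against GFP (Col8a2). Under that setting 205, 208 and 411 of all genes were so called, against 53, 36 and 179. These are dim genes, and that setting uses a floor of 16. The median for IMQ in GFP skin was -0.24, in place of -0.09, among genes above the limit on all 4 arrays, a filter chosen after seeing the data that drops 7 dim genes. With no filter the collagen median was -0.07 in place of -0.21 for IL-17A without IMQ, and -0.03 in place of -0.17 for IL-17A with IMQ against GFP. Except for the -0.24 for IMQ in GFP skin, each median moved by less than the median size of difference over all genes in its comparison. With 1 probe for Col1a1, Col1a2 and Col5a1 and 1 pool per group, the pool and the treatment cannot be told apart.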
